A study of Mus musculus with 6 samples.

Results

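The synaptic vesicle cycle and release machinery was described in the mouse cerebral cortex at 6 and 24 months of age through 46 genes, chosen by name from what their proteins do, out of 55421 genes in the files. All 46 were found once each by symbol, and all 46 passed the filter on low counts (at least 10 counts over the 6 libraries), as did 32905 genes in all. RNA-seq was performed on the microdissected and powdered cortex of 3 male mice of 6 months (mice 10, 11 and 17) and 3 male mice of 24 months (mice 2, 4 and 5). All were wild type (WT) C57BL/6J mice, an inbred laboratory strain, killed under isoflurane. The study asked how mRNA levels differ between the ages. Each library came from a single mouse, and a cortex homogenate mixes neurons with glia and blood vessels, so that fewer cells of a type and less RNA per cell cannot be told apart.

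Neurons store transmitter in synaptic vesicles, which dock at the active zone of the nerve ending and fuse with the plasma membrane when calcium enters. Fusion is driven by the SNARE proteins of vesicle and plasma membrane, is triggered by the calcium sensors of the synaptotagmin family, and is prepared by active zone scaffolds that hold vesicles close to calcium channels. NSF and its SNAP adaptors then take the spent SNARE complexes apart, and the vesicle membrane is retrieved by endocytosis and refilled by vesicular transporters. The genes were sorted by these steps: vesicle membrane proteins and synapsins, vesicular glutamate transporters, SNARE proteins, SNARE recycling and regulation, calcium sensors, Rab3 and active zone proteins, and endocytosis.

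The libraries held 29495379 to 36494240 counts. Levels in each mouse are given as CPM, the count scaled to library size, after TMM scaling (factors of 0.921 to 0.946 at 6 months and 1.04 to 1.1 at 24 months). Log2 fold changes are for 24 against 6 months, with their standard error (SE), and FDR is the p-value of edgeR's quasi-likelihood test adjusted by Benjamini-Hochberg over all 32905 genes. The neuronal marker genes summed to 3304 to 3755 TPM at 6 months and 3188 to 4131 TPM at 24 months, with 0 of the 10 at 0, and 3 of them were lower past 10% FDR. The markers of excitatory cortical neurons summed to 2433 to 2727 TPM and 2125 to 2433 TPM (3 of 10 lower past 10% FDR, 0 at 0). Those of inhibitory neurons summed to 2417 to 2649 TPM and 2101 to 2583 TPM (0 of 10 past 10% FDR). By the same rule 25.4% of all genes with a mean of at least 10 CPM were lower and 0.548% higher. With library totals in place of TMM, 1 neuronal and 0 excitatory markers were called lower, and 1 of each list higher. Astrocyte markers summed to 3038 to 3232 TPM at 6 months and 3494 to 3688 TPM at 24 months (1 of 8 higher past 10% FDR, Gfap). Aldoc alone had 1700 to 1871 TPM and 1988 to 2176 TPM, with a log2 fold change of 0.11 (FDR = 0.381). Of the 8 astrocyte markers, 4 had negative log2 fold changes, and the median was -0.02. Microglial markers summed to 882 to 903 TPM and 958 to 1060 TPM (1 of 8 higher and 1 lower). All these sums are of TPM without TMM scaling, whereas the calls are with it. The part of these cell types in the results was not tested. The 1545 genes of smell, taste and pheromone receptors, which are not typical of cortex, had 0.0206 to 0.0236 CPM per kb of exon in the young mice and 0.0552 to 0.0944 in the old. At the highest of these levels, a like density over the exons of a member would make up at most 12.5% of its mean CPM at 24 months (Doc2b), then 7.67% (Sv2c), and over 1% in 12 of the 46 members.

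By level per length, the genes covered a wide range. Snap25, the SNARE protein of the nerve ending's plasma membrane, had a mean of 2500.1 TPM over the 6 mice and stood at rank 23 of all genes. It made up 13.9% of the summed TPM of the 46 genes. Cplx2, a complexin that clamps and aids the assembled SNAREs, had 1498 TPM (rank 44), Vamp2, the main vesicle SNARE, 1264 TPM (rank 62), and Rab3a, the GTPase that tethers vesicles, 1259 TPM (rank 63). In all, 23 of the 46 were among the first 1000 genes by TPM. The lowest were Doc2b, a calcium sensor, at 2.91 TPM, Sv2c, the rarest of the SV2 vesicle glycoproteins, at 4.55 TPM, and Prrt2, a SNARE regulator mutated in paroxysmal movement disorders, at 4.61 TPM. Within families the forms were far apart in level: Slc17a7, the glutamate transporter of cortical neurons, had 149.6 TPM and Slc17a6, that of thalamic and other subcortical neurons, 7.93 TPM, while Vamp1 had 23.9 TPM beside Vamp2, and Syt2, the calcium sensor of fast inhibitory cells, 11.6 TPM beside 832 TPM of Syt1. Added up over the 46 genes, the TPM came to 19419.7 for mouse 10, 18155 for mouse 11 and 18247 for mouse 17 at 6 months. At 24 months it came to 16445 for mouse 2, 17465 for mouse 4 and 18001 for mouse 5. The 24-month values all lay below the 6-month ones (18607 ± 705 against 17303 ± 791, SD, n = 3 each), with a gap of less than 1 SD between the nearest mice. The genes thus held 1.86% of all TPM at 6 months and 1.73% at 24 months.

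With TMM scaling, 18 of the 46 genes were lower at 24 months past 10% FDR and 0 were higher. Over all genes tested, 8.33% were called lower and 10% higher by the same rule. Expression matters to this background: of the 10028 genes with a mean of at least 10 CPM, where all members but Prrt2 and Doc2b lie, 25.4% were called lower and 0.548% higher. Among the 500 genes nearest to each member in mean log2 CPM, 34.2% were called lower on average, against 39.1% of the members. No member passed the study's 1% FDR in the quasi-likelihood test, as for all genes (0%), though 23 members (50%) had an unadjusted p under 0.05, all of them lower. Of all genes 30.7% had such a p in either direction, and of the genes of at least 10 CPM 38.5% had it on the lower side. In edgeR's likelihood ratio test 1 member, Syn1, was lower past 1% FDR (0.766% of all genes), and likewise 1 in the exact test and 1 in DESeq2's Wald test, but 0 in limma on log2(TPM + 1). The FDR of the 18 genes ran from 0.0518 to 0.0981, so that all 18 lay between 0.05 and 0.1. With 1 mouse left out, 0 members passed 10% FDR without mouse 10, mouse 11, mouse 2 or mouse 4, 11 without mouse 17 and 21 without mouse 5, in fits of 5 libraries in place of 6. The share of all genes called in these fits was not counted, so the swing cannot be ascribed to the members in particular. The log2 fold changes moved less: the members' median was between -0.27 and -0.21 with any mouse left out, and that of Syn1 between -0.57 and -0.45.

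The median log2 fold change of the 46 genes was -0.23, against 0.15 over all genes tested and -0.20 over genes of at least 10 CPM. In the plot of fold change against expression the members follow the running median of all genes, which falls with rising CPM. Each gene's log2 fold change was therefore also set against the median of the 500 genes nearest in mean log2 CPM, here called the relative log2 fold change. Its median over the members was -0.02, with 27 of the 46 below 0. The relative values ran from -0.91 for Slc17a6 to 0.83 for Dnm1, with 14 genes below -0.1 and 12 above 0.1.

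**Figure D1:**
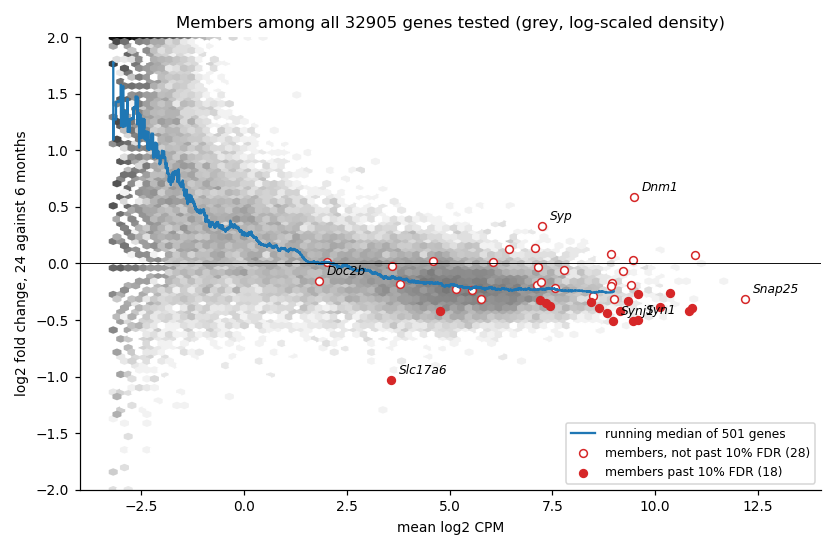
Log2 fold change (24 against 6 months, TMM scaling) against mean log2 CPM for all 32905 genes tested (grey, log-scaled density, values clipped at -2 and 2) with the 46 members in red, filled where past 10% FDR (18 genes). The blue line is the running median; most members lie along it at around -0.2, with Dnm1 and Syp above and Slc17a6 below.

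Which genes were called, and in which direction, depended on the scaling. With library totals alone the members' median was -0.04, 26 of the 46 were below 0, and 5 passed 10% FDR: Syn1, Sv2b and Sh3gl2 lower, Bsn and Sncb higher. By that scaling 0.966% of all genes were called lower and 12.5% higher. With TMM factors taken from genes of at least 10 CPM alone, the median was -0.02 and 3 were called, Syn1 lower and Bsn and Sncb higher. With offsets for GC content it was -0.10 and Syn1, Sv2b and Synj1 were called lower. Among the nearest genes in expression, 3.45%, 2.97% and 5.16% were called lower by these 3 scalings, beside 6.52%, 2.17% and 6.52% of the members. The relative median stayed between -0.02 and -0.04 under all 5 scalings. Only Syn1 of the 46 was called lower under each of them.

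**Figure D2:**
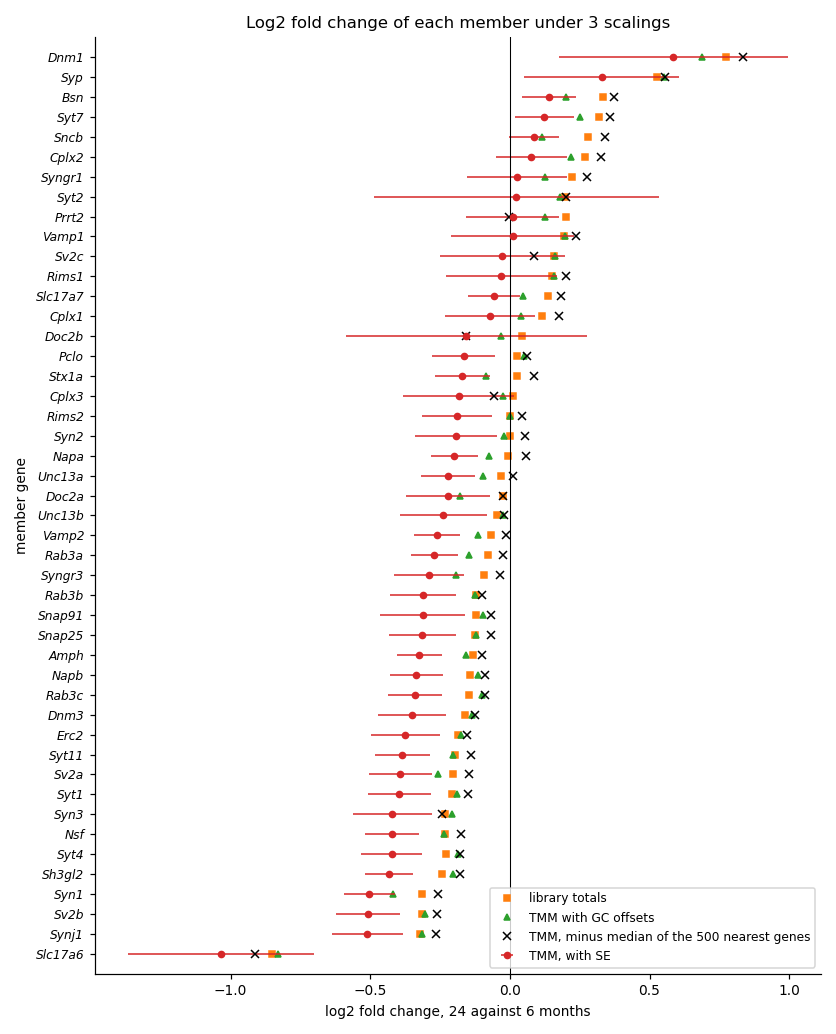
Log2 fold change (24 against 6 months) of each member with TMM scaling (red circles, bars are 1 SE), library totals (orange squares) and TMM with GC offsets (green triangles), and relative to the 500 genes nearest in expression (crosses). Library totals move every gene to the right by about the same amount. Slc17a6, Synj1, Sv2b and Syn1 are among the genes that stay left of 0 by each measure.

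Among the 3 synapsins, which coat vesicles and tether them to actin, Syn1 (chrX:20860511-20921004, minus strand, GRCm38) fell the most clearly. It had 909.9, 913 and 874 CPM in mice 10, 11 and 17 and 617, 589.7 and 696 CPM in mice 2, 4 and 5, or 899 ± 21.4 at 6 months and 634 ± 55.3 at 24 months (SD, n = 3). The ages did not overlap, and the gap between them exceeded the range within either age. Its log2 fold change was -0.50 (SE 0.0906, FDR = 0.0518 in edgeR's quasi-likelihood test), or -0.26 relative to genes of similar expression. Syn2 had 579, 730.4 and 864 CPM at 6 months and 728, 588 and 586 CPM at 24 months. These ages overlapped, and the log2 fold change of -0.19 (SE 0.15) had an FDR of 0.394 in the same test and was 0.00 with library totals. Syn3, the scarcest synapsin at 8 TPM, was called lower (-0.42, FDR = 0.0896).

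The SV2 glycoproteins are transporter-like proteins of the vesicle membrane, and SV2A binds the drug levetiracetam. Sv2b (chr7:75114894-75309262, minus strand) fell from 954, 754 and 756 CPM at 6 months to 527, 579.6 and 627 CPM at 24 months, in all 24-month mice below all 6-month mice. Its log2 fold change was -0.51 (SE 0.12, FDR = 0.054, relative value -0.26). Sv2a fell from 444, 494 and 419.8 CPM to 298, 349.8 and 387 CPM, a log2 fold change of -0.39 (SE 0.11, FDR = 0.0674). Mouse 2 was lowest for both, and the ages did not overlap. Sv2c overlapped between the ages (-0.03, FDR = 0.951). Of the other membrane proteins of the vesicle, Syngr3 had a log2 fold change of -0.29 with no overlap but missed 10% FDR (FDR = 0.151), and Syngr1 had 0.03 (FDR = 0.935). In this group 4 of 9 genes were called lower and 0 higher, beside 34.8% of the genes nearest to them in expression called lower. With library totals 2 of the 9 were called lower.

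Synaptophysin, Syp, is the most widely used marker of vesicle membrane, and its values were scattered at 6 months. It had 206, 74.7 and 125 CPM in mice 10, 11 and 17 and 177, 160.1 and 172 CPM in mice 2, 4 and 5. The 6-month mice were thus on both sides of the 24-month mice, which lay close together. The log2 fold change of 0.33 had an SE of 0.28 and an FDR of 0.441, and it was 0.77 without mouse 10 and 0.07 without mouse 11. Mouse 10 was also the highest and mouse 11 the lowest for Syngr1 (915, 502 and 680.3 CPM).

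**Figure D3:**
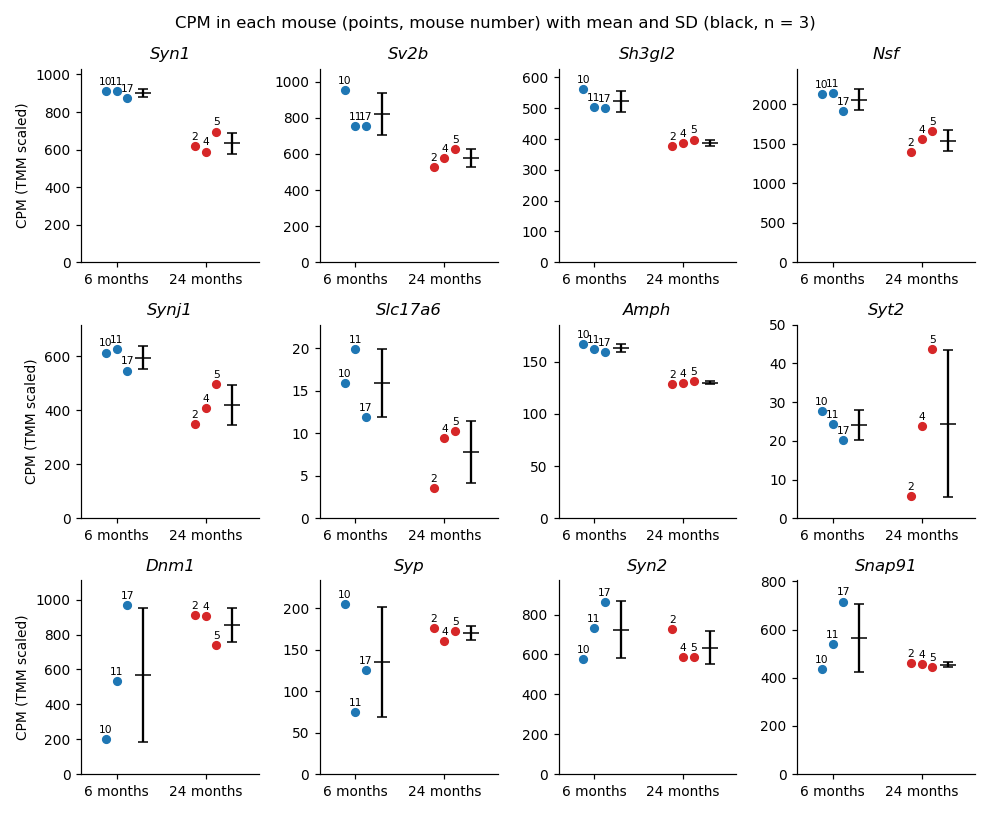
CPM (TMM scaled, linear axes from 0) of 12 members in each mouse (points with the mouse number, blue for 6 months and red for 24 months) with the mean and SD of each age (black, n = 3). Syn1, Sv2b, Sh3gl2, Nsf, Synj1, Slc17a6 and Amph do not overlap between the ages, whereas Dnm1, Syp, Syn2 and Snap91 spread widely among the 6-month mice and Syt2 among the 24-month mice.

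The vesicular glutamate transporters load glutamate into vesicles. Slc17a7 overlapped between the ages, with 222, 206 and 246 CPM at 6 months and 217, 209 and 222 CPM at 24 months (log2 fold change -0.06, SE 0.0935, FDR = 0.703). Slc17a6 had 15.9, 19.9 and 12 CPM at 6 months and 3.58, 9.48 and 10.3 CPM at 24 months, the steepest fall of the 46 genes (-1.03, SE 0.33, FDR = 0.0825). All 24-month mice were below all 6-month mice, but mouse 2 was far below mice 4 and 5, and mouse 5 came close to mouse 17. Without mouse 2 its log2 fold change was -0.68 and it was no longer called (FDR = 0.121), nor was it without mouse 10, 11, 17 or 4. Within each library the TPM ratio of Slc17a6 to Slc17a7 was 0.0714, 0.0967 and 0.0486 at 6 months and 0.0165, 0.0453 and 0.0462 at 24 months (two-sided exact permutation test on log2 ratios, p = 0.1, below which 3 mice against 3 cannot go; 0.56 adjusted over 14 such ratios of related members). Thalamic marker genes, which mark the main site of Slc17a6 in the forebrain, summed to 99.0 to 144 TPM at 6 months and 99.0 to 140.3 TPM at 24 months. None of these 6 markers was at 0 in all libraries, 0 were lower and 1 (Slitrk6, 1.16, FDR = 0.0868) was higher past 10% FDR, and their median log2 fold change was 0.18. Slitrk6 was scarce, with 0.214, 0.145 and 0.178 TPM at 6 months and 0.415, 0.571 and 0.3165 TPM at 24 months. Lhx9 was scarce too, with at most 0.408 TPM. Counts over the smell, taste and pheromone receptor genes were also denser in the old mice, and the part of such counts in these low values was not tested. Calb2, also a marker of cortical inhibitory neurons, was the most abundant of the 6 markers, with up to 103 TPM. The part of these cells in the change of Slc17a6 was not tested.

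The SNARE proteins Snap25, Stx1a and Vamp2 form the complex that fuses the membranes. Vamp2 fell from 1506, 1409 and 1402 CPM at 6 months to 1158, 1236 and 1209 CPM at 24 months (-0.26, SE 0.0814, FDR = 0.0775), and its value relative to genes of similar expression was -0.02. Snap25 (chr2:136713453-136782428, plus strand) had 5796, 4837 and 4851 CPM at 6 months and 3561, 4184 and 4714 CPM at 24 months. Its ages did not overlap, but mice 5 and 11 were near each other and the FDR was 0.117, with a log2 fold change of -0.31 (SE 0.12). For Stx1a the ages overlapped (-0.17, FDR = 0.256). Vamp1, the form that prevails in brainstem and spinal cord, had 71.5, 61.2 and 65.9 CPM at 6 months and 42, 67.5 and 90.4 CPM at 24 months, so that the 24-month mice lay below, within and above the 6-month range.

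Recycling of SNAREs rests on the ATPase NSF and its adaptors, the alpha and beta SNAPs encoded by Napa and Napb. Nsf (chr11:103821782-103954056, minus strand) fell from 2133, 2140.2 and 1911 CPM to 1397, 1556 and 1666 CPM, with no overlap between the ages. Its log2 fold change was -0.42 (SE 0.096, FDR = 0.0541; relative value -0.17). Napb fell from 771, 733 and 673 CPM to 529, 581 and 617 CPM, a log2 fold change of -0.33 (SE 0.0945, FDR = 0.0649), again without overlap. Napa did not overlap either, at 555, 511 and 495 CPM and 458, 449 and 453 CPM, but missed 10% FDR (-0.20, FDR = 0.142). The regulators of SNARE assembly did not go the same way. The complexins Cplx1, Cplx2 and Cplx3 had log2 fold changes of -0.07, 0.08 and -0.18, all with overlapping ages and with FDR from 0.552 to 0.788. Prrt2 had 4.22, 4.17 and 3.48 CPM at 6 months and 4.28, 3.44 and 4.23 CPM at 24 months (0.01, SE 0.17, FDR = 0.976), and its sign turned when mouse 17, 2 or 5 was left out. Sncb, beta-synuclein, a chaperone-like protein of nerve endings, had 484, 450.5 and 472 CPM and 526, 511 and 456 CPM. Its log2 fold change was 0.09 (SE 0.0891, FDR = 0.535), and it was called higher only by the scalings on totals (0.28, FDR = 0.0989) and on genes of at least 10 CPM (0.30, FDR = 0.0844).

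Among the calcium sensors, the abundant synaptotagmins Syt1, Syt4 and Syt11 fell and the scarcer ones did not pass the test. Syt1, the sensor of fast synchronous release, had 2325, 2180.0 and 1990.1 CPM at 6 months and 1432, 1636 and 1868 CPM at 24 months (-0.40, SE 0.11, FDR = 0.0652). Syt11, which does not bind calcium and acts in vesicle retrieval, had 1324, 1328 and 1149 CPM and 878, 1004 and 1028 CPM (-0.39, SE 0.0989, FDR = 0.0587). Syt4, found on dense core vesicles, had 758, 586 and 604 CPM and 499.5, 491 and 462 CPM (-0.42, SE 0.11, FDR = 0.0596). None of the 3 overlapped between the ages, and all were between -0.14 and -0.18 relative to genes of similar expression. Syt7, the slow sensor of asynchronous release, was among the 5 members with the largest log2 fold changes, with 76.5, 83.6 and 88.3 CPM and 101, 87.6 and 82.3 CPM. Its ages overlapped (0.12, SE 0.11, FDR = 0.446).

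Syt2 was the member most unlike between mice of one age. It had 27.8, 24.2 and 20.1 CPM at 6 months but 5.73, 23.9 and 43.6 CPM in mice 2, 4 and 5, a range of 7.6 times at 24 months around like means of 24.0 and 24.4 CPM (log2 fold change 0.02, SE 0.51, FDR = 0.98). Mouse 2 was lowest and mouse 5 highest at 24 months also for Vamp1, for Cplx1 (419, 612 and 697 CPM) and for Rims1 (103, 137 and 180.4 CPM). That order was not particular to these genes. It held for other members, among them Snap25, Nsf, Syt1 and Synj1, whereas others, among them Syngr3, Stx1a, Syt7 and Bsn, had the reverse order. Among the 10 markers of inhibitory neurons, mouse 2 was lowest and mouse 5 highest for Pvalb of fast-spiking cells (81.9, 172 and 248 TPM), Gad1 and Gad2. Vip (57.5, 49.0 and 40.8 TPM), Dlx1 and Reln had the reverse order, and the list summed to 2367, 2101 and 2583 TPM. Mouse 2 was lowest and mouse 5 highest also for the summed neuronal markers (3188, 3344 and 4131 TPM). The same held for the summed oligodendrocyte markers (845, 1999 and 2612 TPM, against 1446 to 2268 TPM at 6 months). The part of cell composition in these values was not tested. Doc2a and Doc2b, high-affinity sensors of spontaneous release, overlapped between the ages, and Doc2b had 1.75, 3.65 and 5.56 CPM at 6 months and 4.96, 3.27 and 1.65 CPM at 24 months.

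Rab3 GTPases and the active zone scaffolds hold vesicles ready at the membrane. The Rab3 forms all had negative log2 fold changes without overlap, as 45.7% of genes of at least 10 CPM did. Relative to genes of similar expression they were at -0.02 (Rab3a), -0.10 (Rab3b) and -0.09 (Rab3c). Rab3c fell from 413, 380.0 and 364 CPM to 313, 325 and 276 CPM (-0.34, SE 0.0962, FDR = 0.0654), Rab3a also passed 10% FDR (-0.27, FDR = 0.0769) and Rab3b did not (-0.31, FDR = 0.118). Of the scaffolds and priming factors, Erc2 alone was called lower (-0.37, FDR = 0.0849). Unc13a, the main Munc13 priming factor of cortex, did not overlap between the ages but missed the line (-0.22, FDR = 0.15). Rims1, Rims2, Unc13b and Pclo overlapped, with log2 fold changes from -0.24 to -0.03. Bassoon, Bsn, overlapped too, with 124, 118 and 142 CPM at 6 months and 146, 141 and 136 CPM at 24 months. Its log2 fold change was 0.14 (SE 0.0979, FDR = 0.35) and 0.37 relative to genes of similar expression. It was called higher with library totals (0.33, FDR = 0.0834) and with TMM over genes of at least 10 CPM (0.35, FDR = 0.0754).

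Bassoon and its larger relative Piccolo (Pclo) are the giant scaffolds of the same active zone, so their ratio within a library is free of the library scaling. The TPM ratio of Pclo to Bsn was 0.827, 0.865 and 0.915 in the 6-month mice 10, 11 and 17 and 0.710, 0.676 and 0.730 in the 24-month mice 2, 4 and 5. The ratio was below all 6-month values in 3 of 3 mice at 24 months (0.869 ± 0.0445 against 0.705 ± 0.0276, SD, n = 3 each; two-sided exact permutation test on log2 ratios, p = 0.1, adjusted p = 0.56 over 14 ratios). The pair differs in GC content (45.5% and 59.8%), and the log2 fold change of Pclo less that of Bsn was -0.31 with TMM scaling and -0.15 with GC offsets. Of the 14 ratios, this one and that of Slc17a6 to Slc17a7 reached the smallest p that the design allows. The ratio of Syn1 to Syn2 was 3.35, 2.66 and 2.16 at 6 months and 1.81, 2.14 and 2.53 at 24 months, and overlapped (exact permutation p = 0.2, adjusted p = 0.56).

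Of the endocytosis genes 4 of 6 were called lower and 0 higher with TMM scaling, beside 39.3% of the genes nearest to them in expression, and 1 of 6 with library totals and with GC offsets. The group also held the gene with the largest positive value. Sh3gl2 (chr4:85205126-85639195, plus strand) encodes endophilin A1, which bends the budding membrane, and had 562, 504 and 502 CPM at 6 months and 376, 386 and 398 CPM at 24 months. The 24-month mice lay close together and well below the lowest 6-month mouse (-0.43, SE 0.0862, FDR = 0.0518). Synj1, the lipid phosphatase synaptojanin that uncoats the vesicle, fell from 614, 626 and 547 CPM to 349, 408 and 497 CPM (-0.51, SE 0.13, FDR = 0.0567; relative value -0.26). Its 24-month mice were further apart, with mouse 5 nearest to the young ones. Amph, amphiphysin, which recruits dynamin, was steady within both ages, with 167, 162 and 159.6 CPM and 129, 130.0 and 131 CPM (-0.32, SE 0.0809, FDR = 0.0567). Dnm3 was called lower (-0.35, FDR = 0.0981) although its mouse 5 lay just above mouse 17, the only call of the 18 with overlapping ages. Snap91, the clathrin adaptor AP180, had 438, 539.5 and 716 CPM at 6 months and 462, 458 and 444 CPM at 24 months and did not pass (FDR = 0.194).

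Dnm1 (chr2:32308471-32353338, minus strand) encodes dynamin 1, the neuronal GTPase that pinches vesicles off the membrane. It had 202, 534 and 969.9 CPM in mice 10, 11 and 17 and 913, 906 and 741 CPM in mice 2, 4 and 5. The 6-month mice differed 4.8 times, with mouse 10 lowest and mouse 17 above all 24-month mice. The log2 fold change of 0.59 had an SE of 0.41 (FDR = 0.352), and it was 1.22 without mouse 17 (FDR = 0.0968) and 0.19 without mouse 10 (FDR = 0.614). Mouse 10 was the lowest and mouse 17 the highest of the 6-month mice also for Syn2, Snap91, Doc2b and the vesicle protein gene Tprgl (106, 244 and 296 CPM). Of the 46 genes, 7 differed by more than 1.5 times among the 6-month mice (Syp, Syngr1, Slc17a6, Cplx3, Doc2b, Dnm1 and Snap91) and 8 among the 24-month mice (Sv2c, Slc17a6, Vamp1, Cplx1, Syt2, Doc2a, Doc2b and Rims1). The median coefficient of variation of the members was 8.44% at 6 months and 11.6% at 24 months, beside 6.88% and 8.91% over genes of at least 10 CPM.

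The stretches just upstream of 3 genes are shown, standing for members that fell (Syn1, Nsf) and members that spread among the young mice (Dnm1). They run 5′ to 3′ on the gene's own strand and end where transcription starts in the annotations; they are RefSeq sequence of GRCm38.p6, up to 250 bases, leaving out bases that GENCODE places in the gene. Capitals mark the REST core TTCAGCACC (a part of the longer element bound by the repressor REST), the cAMP response element TGACGTCA, the E box CACGTG, the GC box GGGCGG and the TATA box TATAAA, searched on both strands.
Syn1, chrX:20921005-20921168, minus strand: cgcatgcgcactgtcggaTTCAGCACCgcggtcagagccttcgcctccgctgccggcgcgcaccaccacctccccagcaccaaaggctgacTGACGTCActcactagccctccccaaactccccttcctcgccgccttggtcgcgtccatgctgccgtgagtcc
Nsf, chr11:103954057-103954306, minus strand: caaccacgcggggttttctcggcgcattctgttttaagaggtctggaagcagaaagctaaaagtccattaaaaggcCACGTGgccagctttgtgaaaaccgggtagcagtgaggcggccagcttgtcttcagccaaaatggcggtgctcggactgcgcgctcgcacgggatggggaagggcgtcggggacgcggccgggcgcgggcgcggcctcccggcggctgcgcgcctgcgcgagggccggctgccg
Dnm1, chr2:32353339-32353579, minus strand: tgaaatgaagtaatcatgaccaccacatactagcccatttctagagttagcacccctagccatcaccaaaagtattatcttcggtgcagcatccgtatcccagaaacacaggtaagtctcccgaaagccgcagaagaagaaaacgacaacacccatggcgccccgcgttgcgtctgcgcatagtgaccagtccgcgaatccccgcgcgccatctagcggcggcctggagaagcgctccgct
The Syn1 stretch holds the REST core and the cAMP response element, that of Nsf an E box, and that of Dnm1 none of the motifs searched. A match describes letters and is not a binding site.

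The promoter table held 45 windows for 36 of the 46 members. In the 250 bases before the start, the REST core was found in 2.22% of member windows (Syn1 alone) and in 0.301% of all 32851 windows. The cAMP response element was in 4.44% of member windows (Syn1 and Sh3gl2) and in 1.55% of all. The E box was in 11.1% of member windows (Cplx3, Napa, Nsf, Sv2b and Unc13b) against 6.02% of all, and the GC box in 57.8% against 32.7%. The TATA box was rarer, in 6.67% (Rab3b and Sv2b) against 12.4%. The GC content of these windows also differed, with a median of 61.2% for members and 52.4% for all windows.

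The base composition of the transcripts moved with the fold changes. Over the 46 members the GC content of the longest transcript and the log2 fold change had a Spearman correlation of 0.51 (Pearson 0.45), a description across genes of the same libraries. Over 10025 genes of at least 10 CPM it was 0.27, and over the members with GC offsets 0.28. Mice of the same age also differed by GC content. At 6 months the members' correlation was 0.31 for mouse 17 less mouse 10 and 0.12 for mouse 11 less mouse 10. At 24 months it was -0.43 for mouse 5 less mouse 2 and -0.31 for mouse 4 less mouse 2. The genes called lower had a median GC content of 46.6% and the other members 54.2%. Snap25, at 38.7% GC, and Syt4, at 40.7%, were at the low end, and Sncb (61.4%) and Bsn (59.8%), with positive log2 fold changes, near the high end. Syn1 was called lower at 57.9% GC, and with GC offsets its log2 fold change was -0.42. The part of GC content in the other changes was not tested beyond these offsets, under which 3 of the 18 calls were made.

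**Figure D4:**
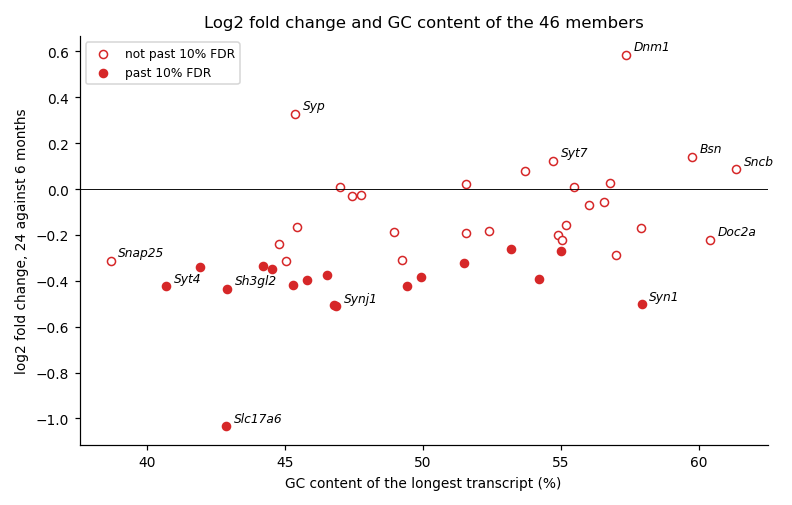
Log2 fold change (24 against 6 months, TMM scaling) of the 46 members against the GC content of their longest transcript, filled where past 10% FDR. Most filled points lie below 50% GC, with Syn1 at 57.9% the one furthest to the right, and the points above 0 lie mostly above 50% GC, apart from Syp at 45.4% and Vamp1 at 47.0%.

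Across the members, 22 of 46 had all 3 mice of 24 months below all 3 of 6 months and 0 had them above. Over all genes tested 16.3% did so downward and 20% upward, and over the genes of at least 10 CPM 45.7% downward. The share of members without overlap was therefore near that of genes of their level. With library totals 8 of 46 members did not overlap, but the share over all genes was not counted by that scaling, so the members cannot be set against it. By mouse, 36, 37 and 35 of the 46 genes lay below the 6-month mean in mice 2, 4 and 5, with medians of -0.33, -0.23 and -0.21 on the log2 scale. The 18 genes called lower had medians of -0.51, -0.40 and -0.30 in these mice, so that mouse 2 stood furthest from the 6-month mice and mouse 5 nearest.

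**Figure D5:**
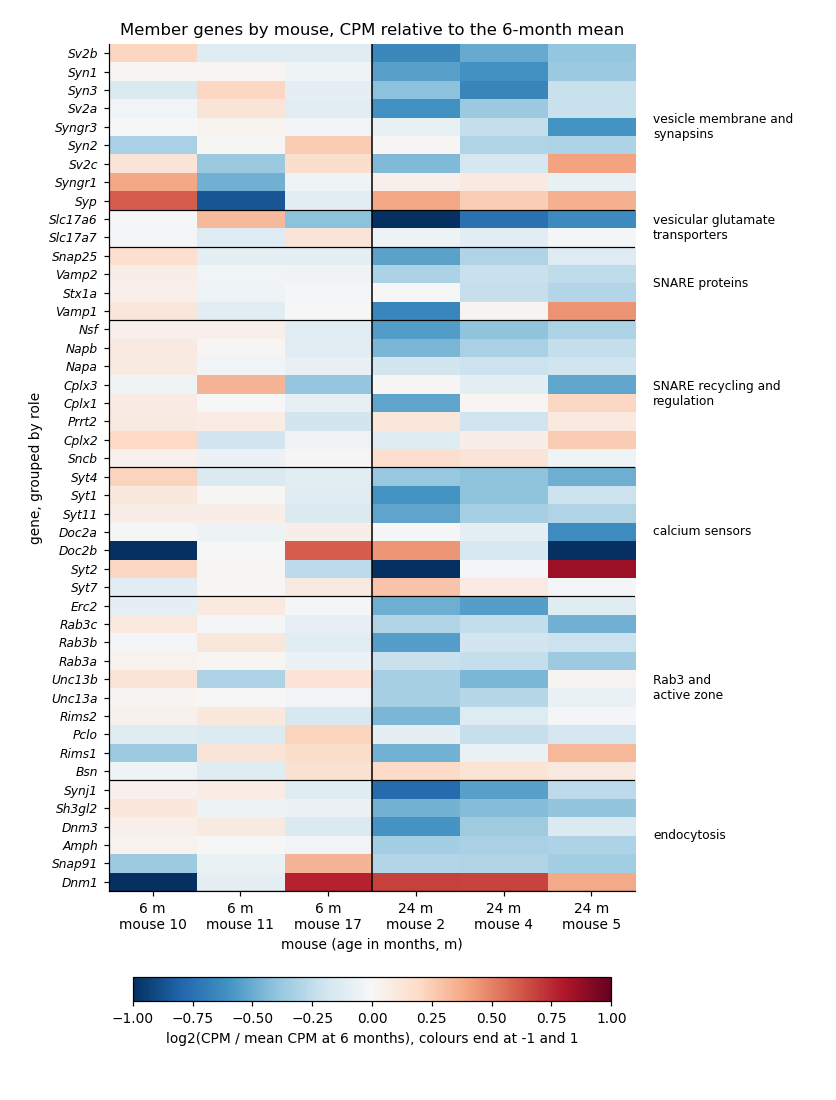
Log2 of the CPM of each of the 46 members in each mouse relative to its mean in the 6-month mice, grouped by role and sorted by log2 fold change within a role (colours end at -1 and 1). Blue fills most of the 3 columns of the 24-month mice and is deepest in mouse 2, while Dnm1, Doc2b, Syp and Syt2 differ strongly between mice of the same age.

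The other genes of the pathway, 90 in all, were counted in the same way. Of these, 36 were called lower past 10% FDR and 0 higher, and their median log2 fold change was -0.26, whereas of the genes nearest to them in expression 32.1% were called lower. The vesicular proton pump, whose gradient drives the loading of transmitter, was called lower in 11 of its 16 genes, with a median of -0.29 (-0.10 with library totals, where 1 was called lower). Of the genes nearest to the pump's genes in expression 40.6% were called lower, with a median of -0.25. Of the other release genes 15 of 49 were called lower, beside 28.6% of the genes nearest to them in expression. Of the other endocytosis genes it was 10 of 25, beside 33.3%. With library totals 0 of the release genes and 2 of the endocytosis genes were called lower. The most negative with at least 1 CPM were Syt10 (-1.003, SE 0.40, FDR = 0.131), Syt6 (-0.98, FDR = 0.195) and Doc2g (-0.89, FDR = 0.215), none past the test. Syt6 had 5.24, 24.3 and 19.9 CPM in mice 2, 4 and 5 and 32.9, 47.8 and 17.4 CPM in mice 10, 11 and 17, with wide scatter in both ages. Synj2, the relative of Synj1, had the smallest FDR of the members and pathway genes, and was chosen after its values were seen. It fell from 109, 108 and 112 CPM at 6 months to 61.8, 68 and 70.3 CPM at 24 months (-0.72, SE 0.0901, FDR = 0.0312). The most positive with at least 1 CPM were Sh3gl3 (0.37), Tprgl (0.31) and Rims3 (0.23), with FDR of 0.525, 0.508 and 0.32. Below that level, at a mean of 0.105 CPM, Cplx4 had a log2 fold change of 1.95 (FDR = 0.119).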

How the data were processed

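RNA-seq of the cortex was analysed in 6 male mice. Library preparation used the NEBNext single cell/low input kit from 10 ng of RNA, and reads were single-end of 75 bases. The authors trimmed reads (Trim Galore 0.6.4), mapped them to GRCm38 with STAR 2.7.3a and counted exon overlaps with featureCounts (Subread 2.0.0). The deposited counts, 1 per gene and library, were whole numbers and were used as they are, and the deposited TPM values were used for levels, sums and ratios. The members and the gene lists were chosen with earlier results of these data known.

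Counts were scaled by TMM and tested with edgeR 4.0.16 (R 4.3.3), after leaving out genes of under 10 counts in total, by the quasi-likelihood test without covariates (its older mode, the default of this version), with Benjamini-Hochberg adjustment. The study's methods name edgeR at 1% FDR but no test within it. Alternatives were other scalings, filters and tests (DESeq2 1.42.0 and limma 3.58.1 on log2(TPM + 1) or log2(TPM + 0.1)), and each mouse left out. GC offsets, the ratios of related members and the promoter motifs were chosen after seeing the data. Totals of 29495379 to 36494240 counts gave the scarcest members (Doc2b and Prrt2) 54 to 182 counts in a library. The code was tested on simulated data. Members with full statistics are the 12 with the smallest p past 10% FDR, the 5 largest and 5 smallest log2 fold changes, and Syn1, Nsf, Syn2 and Prrt2; other members are given in brief. Positions are from GENCODE vM21, in which all 46 identifiers were found.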

Additional observations from a re-analysis of the deposited data

How the results depend on the processing

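The number of members past 10% FDR depends on the scaling and on single mice, and the size of their median on the scaling, whereas with a mouse left out the median ran from -0.274 to -0.211. No paired analysis was possible because the groups share no replicate numbers. The 18 members past 10% FDR became 5 with library totals, 3 with TMM over genes of at least 10 CPM, 2 with filterByExpr, 11 with DESeq2's test, 0, 1 and 1 with limma on log2(TPM + 1), on log2(TPM + 0.1) and without a filter, 3 with GC offsets, and 0 to 21 with a mouse left out. It was 13 with genes of at least 1 count, 15 with DESeq2 size factors, 15 in the likelihood ratio test and 15 in the exact test. In the newer mode of the quasi-likelihood test it was 19. The share of all genes called at 10% FDR was counted only for the main fit and with library totals. The other counts, also those with a mouse left out, therefore cannot be set against it. The median log2 fold change of -0.230 became -0.039, -0.020, -0.117, -0.138, -0.140, -0.138 and -0.097 with library totals, TMM over genes of at least 10 CPM, filterByExpr, the 3 forms of limma in the same order and GC offsets. The 22 members lower in every 24-month mouse became 8 with library totals, 7 with TMM over genes of at least 10 CPM, 14 with filterByExpr and 12 with GC offsets. The share of all genes without overlap was counted with TMM scaling only. The 0 members past 1% FDR became 1 in the exact test and 1 in DESeq2, and the 1 member of the likelihood ratio test became 0 with library totals, 0 with TMM over genes of at least 10 CPM, and 0 to 4 with a mouse left out. Syn2 turned to 0.002 and 0.021 on the log2 scale with library totals and TMM over genes of at least 10 CPM, and Prrt2 ran from -0.072 to 0.113 with a mouse left out. The other 18 named members kept their sign under all 19 alternatives. The relative median kept its sign in all alternatives tried and ran from -0.048 (without mouse 4) to -0.019 (without mouse 17), against -0.024 in the main fit. The summed TPM kept its sign too and moved by less than 1 SD between mice (log2 ratio -0.134 to -0.069).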
